A study of Homo sapiens with 6 samples.

Results

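Complexes II, III and IV of the mitochondrial respiratory chain carry electrons from succinate and ubiquinol to oxygen. Their nuclear genes were selected from the count table by symbol: SDHA, SDHB, SDHC, SDHD, CYC1, all symbols that begin with UQCR or UQCC, and COX followed by a number, without pseudogenes and antisense rows. The selection held 43 of 29436 genes, namely 4 subunits of complex II, 10 subunits and 3 assembly factors of complex III, and 26 genes of complex IV. The rule reads symbols alone, but it was chosen with earlier results of these data known. The tested cells were hemogenic endothelium, the endothelium that gives rise to blood, made by culture of H1, a human embryonic stem cell line, over AGM-S3 stroma, either in inducing medium that held 100 µg/ml alpha lipoic acid (lipoic acid, 3 libraries) or in medium without it (untreated, 3 libraries). All 6 libraries came from this 1 cell line and from 1000 cells each, sorted on day 8 as positive for CD34, KDR and CD144 and negative for CD43.

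Complex II passes electrons from succinate to ubiquinone and is made by the nucleus alone. Complex III oxidises ubiquinol and reduces cytochrome c, and complex IV uses cytochrome c to reduce oxygen to water. Complexes III and IV combine nuclear subunits with proteins of the mitochondrial genome, so each needs transcripts from both genomes. Lipoic acid acts as an antioxidant, and mitochondrial dehydrogenases that feed this chain carry it as a cofactor. In bulk libraries fewer cells of a type and less RNA per cell cannot be told apart.

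Total counts ran from 31404734 to 41351951 in lipoic acid libraries and from 30041494 to 32034433 in untreated libraries, and 14668 to 15824 genes had a count. Replicates of each group differed by more than counting noise. Untreated replicate 2 stood furthest from its group, with a chi-square of 20.1 to 21.3 per degree of freedom against the other untreated libraries, which differed from each other by 7.97, while pairs of lipoic acid libraries differed by 3.16 to 6. Nonzero counts were almost all even (99.13% to 99.34%) in the lipoic acid libraries and untreated replicate 1, but not in untreated replicates 2 (52.01%) and 3 (51.97%). The 17 endothelial markers summed to 10920 to 11271 CPM (counts per 1000000 counts of a scaled library) with lipoic acid and 13059 to 13180 CPM untreated, with 2 called higher and 10 lower. The largest part of that sum was KDR, which rose, at 4813 CPM with lipoic acid and 4115 CPM untreated. The other sorting markers fell, CD34 from 1451 CPM untreated to 813 CPM with lipoic acid and CDH5 (CD144) from 864 to 556 CPM. Among blood markers SPN, which encodes CD43, PTPRC, HBE1 and HBG1 had no count in any library, and the list summed to 245 to 271 CPM with lipoic acid and 294 to 310 CPM untreated (2 of 4 tested rose, 2 fell). Most of that sum was LAPTM5, which fell, at 244 CPM with lipoic acid and 290 CPM untreated, while PF4, a megakaryocyte gene, rose 8.99-fold, at 3.74 CPM with lipoic acid and 0.415 CPM untreated. Endoderm and hepatic markers summed to 166 to 237 CPM with lipoic acid and 68.7 to 77.9 CPM untreated (8 of 9 tested rose, 1 fell), and epithelial markers to 445 to 522 CPM with lipoic acid and 297 to 329 CPM untreated (4 of 6 tested rose, 1 fell). The epithelial cadherin gene CDH1 was at 9.49 to 12.1 CPM with lipoic acid and 0 to 0.0332 CPM untreated. Muscle markers summed to 66 to 66.7 CPM with lipoic acid and 21.2 to 28.9 CPM untreated (3 of 6 tested rose, 2 fell), mesenchymal markers to 1369 to 1875 CPM with lipoic acid and 1784 to 2355 CPM untreated (1 of 9 rose, 5 fell). Pluripotency markers summed to 93.2 to 96.2 CPM with lipoic acid and 81.4 to 85.8 CPM untreated (3 of 5 tested rose, 1 fell), with POU5F1 at 0 throughout and NANOG at 0 in untreated libraries. The part that other cell types play in the results below was not tested.

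The nuclear genes of complexes II to IV differed by small folds, and most of those that passed the test were lower with lipoic acid. Of the 43 genes, 37 passed the filter on low counts and 6 did not. In a comparison of lipoic acid with untreated libraries (edgeR quasi-likelihood test, Benjamini-Hochberg adjusted p under 0.05 over 13780 genes), 3 of the 37 rose, 11 fell and 23 did not pass. That is 37.8% called, against 47.4% of all tested genes. The rises made up 8.11% of the members against 24.2% of all tested genes, and the falls 29.7% against 23.3%. The median log2 fold change (lipoic acid over untreated) was -0.15 among members and -0.01 among all tested genes. The levels of the groups did not overlap for 19 members, 5 higher and 14 lower with lipoic acid, whereas 59.1% of all tested genes were without overlap (30.4% higher and 28.8% lower).

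Only 4 of the called genes changed by at least 1.5-fold: CYC1, UQCRFS1 and UQCRHL, which fell, and UQCC3, which rose. After a trend on GC content and length was removed from each library (GC and length correction), 1 of the 37 members rose and 11 fell. Of all tested genes 18.9% rose and 27% fell after it, with a median of -0.08, against -0.19 among members. In the 4 even-count libraries alone untreated replicate 1 was the sole control, taken to vary like the others. The median log2 fold change there was -0.07 among members and 0.01 among all tested genes. The untreated libraries were not alike for these genes: untreated replicate 2 was the highest untreated library for 27 of the 37 members (73%), against 37.9% of all tested genes. Without it 3 of the 37 members rose and 9 fell, against 25.1% and 24.2% of all tested genes, and the members' median moved to -0.07. Without lipoic acid replicate 1, 1 of the 37 members rose and 5 fell, against 19.6% and 18.6% of all tested genes. The counts were also 1 and 5 without lipoic acid replicate 2, against 20.2% and 18.5%. They were 1 and 3 without lipoic acid replicate 3, against 18.9% and 16.9%. Thus, with any lipoic acid replicate left out, a smaller share of members than of all tested genes fell.

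**Figure D1:**
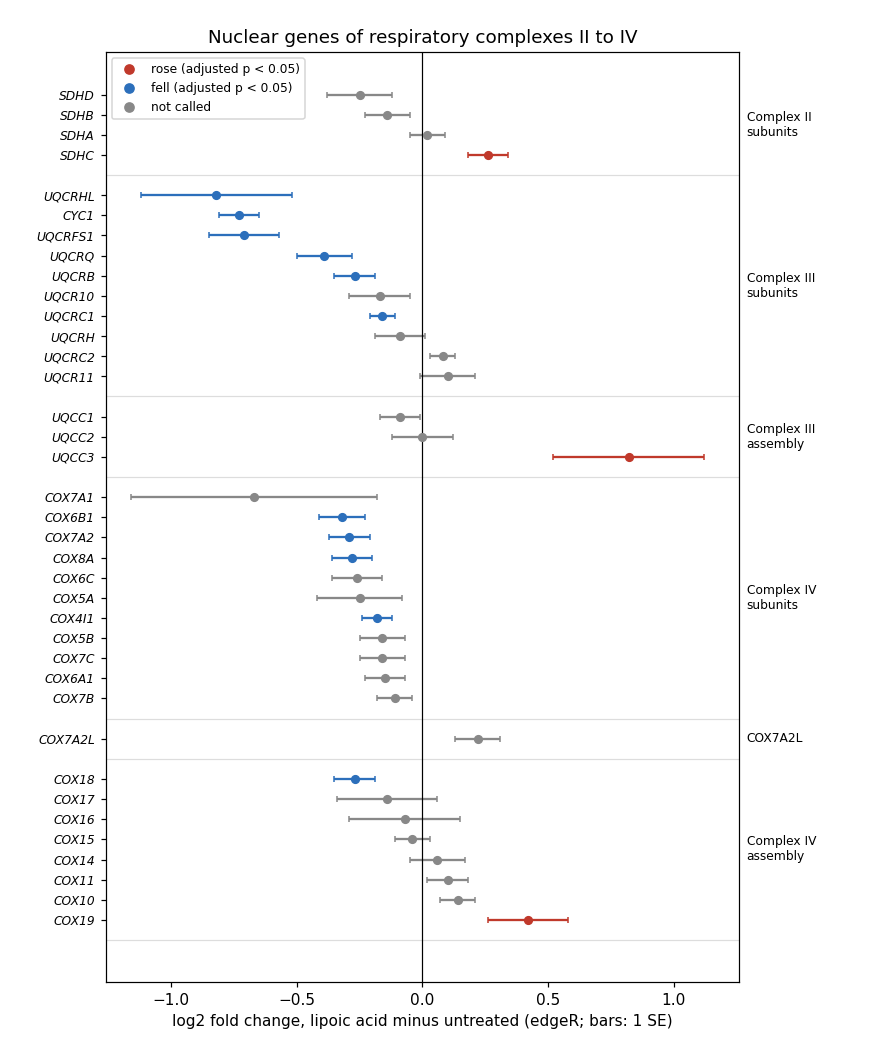
Log2 fold change of the 37 tested members, lipoic acid minus untreated, grouped by complex and role, with bars of 1 standard error (edgeR). Red and blue points passed the test as higher and lower. UQCRHL at -0.82 lies furthest to the left, followed by CYC1 at -0.73, UQCRFS1 at -0.71 and COX7A1 at -0.67, which was not called. All 11 complex IV subunits lie left of 0, and UQCC3 at 0.82 lies furthest to the right.

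NRF1, GABPA and YY1 are transcription factors known to drive respiratory chain genes. Their own transcripts did not pass (log2 -0.51, -0.15 and 0.13, adjusted p = 0.149, 0.219 and 0.0738). Short promoter stretches with NRF1 or GABPA motifs are shown for members that fell. RefSeq (GRCh38.p14) held promoter windows of 300 bases, from 250 before to 50 after a start, for 34 of the 43 members, among them 8 of those that fell and 1 of those that rose. Some genes have windows for several starts. The NRF1 motif (GCGCA, any base, then GCGC), searched on both strands, was present for 11 of the 34 members (32.4%), against 6.98% of all 27305 genes with windows. The ETS motif CCGGAAG, read by GABPA, was present for 14 members (41.2%, against 12.2%), and the YY1 motif AAGATGGC for 4 (11.8%, against 3.52%). The comparison shares cover all genes with windows, whether or not they had counts here, and no share among tested genes was taken. Matches of different motifs overlapped in 0 of the members' windows. Stretches around matches that lie before the start in members that fell are given next, 5′ to 3′ on the gene's strand, with the NRF1 or ETS match in capitals on either strand, beside SDHA, which did not pass.
UQCRFS1, chr19:29213163-29213192, minus strand: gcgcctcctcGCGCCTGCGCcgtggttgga
UQCRC1, chr3:48609674-48609703, minus strand: gtacggtactGCGCCTGCGCcgcgaccgcc
COX18, chr4:73069744-73069773, minus strand: gcaggcaggcGCGCATGCGCtttatgcccg
SDHA, chr5:218193-218222, plus strand: gtggcatggtGCGCAGGCGCgatgtccccc
UQCRQ, chr5:132866578-132866604, plus strand: atggtatctcCCGGAAGttacctcacg
COX8A, chr11:63974592-63974618, plus strand: agctccagaaCTTCCGGccagcgcagc
Starts here are those of RefSeq and can differ from the GENCODE gene positions given elsewhere. The UQCRFS1, UQCRC1 and UQCRQ stretches lie inside the GENCODE genes, and those of COX18 and COX8A span the GENCODE start. Counted from the RefSeq start, the NRF1 match begins 31 bases before it in UQCRFS1 and 47 before a start in both UQCRC1 and COX18. SDHA holds 4 such matches, the one shown 117 bases before its start. NRF1 matches were found both for members that fell and for members that did not pass, and a match is a description of the letters alone.

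In complex II the membrane anchor SDHC rose and the other 3 subunits did not pass. SDHC (chromosome 1, 161314257 to 161375340, GRCh38), an anchor that helps bind ubiquinone and heme, had 40.9, 41.2 and 39.7 CPM in lipoic acid libraries, against 31.4, 36.2 and 34 CPM in untreated libraries. Every lipoic acid library lay above every untreated one, and SDHC rose 1.20-fold (log2 0.26 ± 0.08 SE, adjusted p = 0.018). This call was lost after GC and length correction (SDHC log2 0.07, adjusted p = 0.661) and without lipoic acid replicate 1 (0.0537). Here and below, a number in parentheses after a setting is the adjusted p of the gene under it. SDHD, the other anchor, had 40.7, 42.2 and 42.4 CPM with lipoic acid and 40.7, 61.6 and 47.3 CPM untreated. The SDHD ranges overlapped, with untreated replicate 2 far above the rest, and the gene did not pass (log2 -0.25 ± 0.13, adjusted p = 0.127). It passed as lower without untreated replicate 1, and after GC and length correction with the replicate number as a block. SDHA, the flavoprotein that oxidises succinate, averaged 137 ± 1.07 CPM with lipoic acid and 135 ± 9.86 CPM untreated (SD, n = 3 each), with log2 0.02 ± 0.07 and adjusted p = 0.833. SDHB, the iron-sulfur subunit, averaged 72.1 ± 3.19 CPM with lipoic acid and 79.3 ± 9.5 CPM untreated (adjusted p = 0.223). Per kilobase of exon, SDHB was the highest of the 4, at 29.3 CPM with lipoic acid and 32.2 CPM untreated, and SDHC the lowest, at 2.87 CPM with lipoic acid and 2.39 CPM untreated. This order rests on annotated exon length, which is 2462 bases for SDHB and 14160 for SDHC.

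The falls that held in every setting were in complex III, in the nuclear subunits that carry its redox centres, CYC1 and UQCRFS1. CYC1 (chromosome 8, 144095027 to 144097525) encodes cytochrome c1, which hands electrons to cytochrome c. It had 33.5, 31.5 and 32 CPM with lipoic acid, against 57.2, 54.8 and 48.5 CPM untreated. The groups lay far apart, and CYC1 fell 1.65-fold (log2 -0.73 ± 0.08, adjusted p = 8.54e-05). CYC1 stayed called in each of 20 other settings, although its fall was smaller after GC and length correction (log2 -0.44, adjusted p = 0.000968).

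UQCRFS1 (chromosome 19, 29205321 to 29213541) encodes the Rieske iron-sulfur protein, which takes electrons from ubiquinol. It had 40.1, 39.3 and 36.8 CPM with lipoic acid, against 49.3, 77.6 and 62.9 CPM untreated. All lipoic acid libraries were below all untreated ones, but untreated libraries spread widely, with replicate 2 the highest. UQCRFS1 fell 1.63-fold (log2 -0.71 ± 0.14, adjusted p = 0.00211) and stayed called in each of 20 other settings. The size of the fall depended on the untreated libraries: it was log2 -0.53 without untreated replicate 2 (adjusted p = 0.000888) and -0.35 in the 4 even-count libraries alone (0.0121). An annotated antisense gene covers 5% of the exons of UQCRFS1.

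Small subunits and 1 core protein of complex III fell by less. UQCRQ, a small subunit near cytochrome b, had 16.7, 18.2 and 16.8 CPM with lipoic acid and 22.5, 24.9 and 20.2 CPM untreated. Its groups did not overlap and it fell 1.31-fold (adjusted p = 0.013), a call lost without lipoic acid replicate 1 (0.057) or 3 (0.0628), and GDF9 covers 20.8% of its exons on the other strand. UQCRB, a small subunit next to the ubiquinone site, had 109, 106 and 105 CPM with lipoic acid and 115, 141 and 129 CPM untreated. UQCRB fell 1.21-fold (adjusted p = 0.0166), and the call was lost without lipoic acid replicates 2 (0.0632) or 3 (0.0721), without untreated replicate 3 (0.0513) and in the even-count libraries alone (log2 -0.11, adjusted p = 0.277). UQCRC1, a core protein on the matrix side, was at 270, 267 and 257 CPM with lipoic acid and 306, 299 and 283 CPM untreated. This fall of 1.12-fold (log2 -0.16, adjusted p = 0.0336) was the smallest that passed. After GC and length correction UQCRC1 had log2 -0.04 (adjusted p = 0.66), and its call was also lost without each lipoic acid replicate (0.0795, 0.0917 and 0.167) and without untreated replicate 1 (0.102).

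UQCRHL, a near-identical gene copy of the hinge protein gene UQCRH, also fell, at a low level. It had 1.30, 1.27 and 1.45 CPM with lipoic acid and 1.97, 2.73 and 2.43 CPM untreated (40 to 82 counts per library). The fall was 1.77-fold (adjusted p = 0.0444) and was lost without any 1 of the lipoic acid replicates (0.111, 0.0824 and 0.0936), without untreated replicate 2 (0.085) or 3 (0.109), with no filter (0.053) and in the even-count libraries (0.354). With the replicate number as a block the UQCRHL call was lost too (0.0824). Reads of near-identical copies can be split between the 2 genes. How the authors treated reads with several alignments was not given in the sources used here, so the UQCRHL value is uncertain. UQCRH itself, whose product joins cytochrome c1 to cytochrome c, averaged 94.4 ± 4.94 CPM with lipoic acid and 101 ± 15.1 CPM untreated and did not pass (adjusted p = 0.454). Per kilobase of exon UQCRHL made up 0.89%, 0.812% and 1.03% of the pair with lipoic acid and 1.4%, 1.47% and 1.63% untreated (exact two-sided permutation p = 0.1, the smallest that 3 against 3 allows).

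Of the other complex III genes UQCC3 rose and the rest did not pass. UQCRC2, the second core protein, averaged 245 ± 1.86 CPM with lipoic acid and 232 ± 6.36 CPM untreated, without overlap but not called (log2 0.08 ± 0.05, adjusted p = 0.241). UQCR10 and UQCR11, small membrane subunits, had log2 -0.17 (adjusted p = 0.246) and 0.10 (0.469). Among factors that help make and insert cytochrome b, UQCC1 and UQCC2 averaged 31.6 and 14.7 CPM with lipoic acid and 33.5 and 14.8 CPM untreated and did not pass (0.386 and 0.981), except UQCC1 as lower after GC and length correction. UQCC3, another factor of cytochrome b assembly, had 2.09, 3.16 and 2.71 CPM with lipoic acid and 1.35, 1.7 and 1.46 CPM untreated. All lipoic acid libraries were above all untreated ones and UQCC3 rose 1.76-fold (log2 0.82 ± 0.30, adjusted p = 0.0434). It has 44 to 112 counts per library, shares 29.2% of its exons with LBHD1 on the other strand, and lost its call without lipoic acid replicates 2 (0.112) or 3 (0.114), untreated replicates 1 (0.0972) or 3 (0.101), and in the even-count libraries (0.0904). UQCC3 was also not called with the replicate number as a block (0.0639). Per kilobase of exon UQCRC1 was the highest complex III subunit, at 81.8 CPM with lipoic acid and 91.5 CPM untreated.

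**Figure D2:**
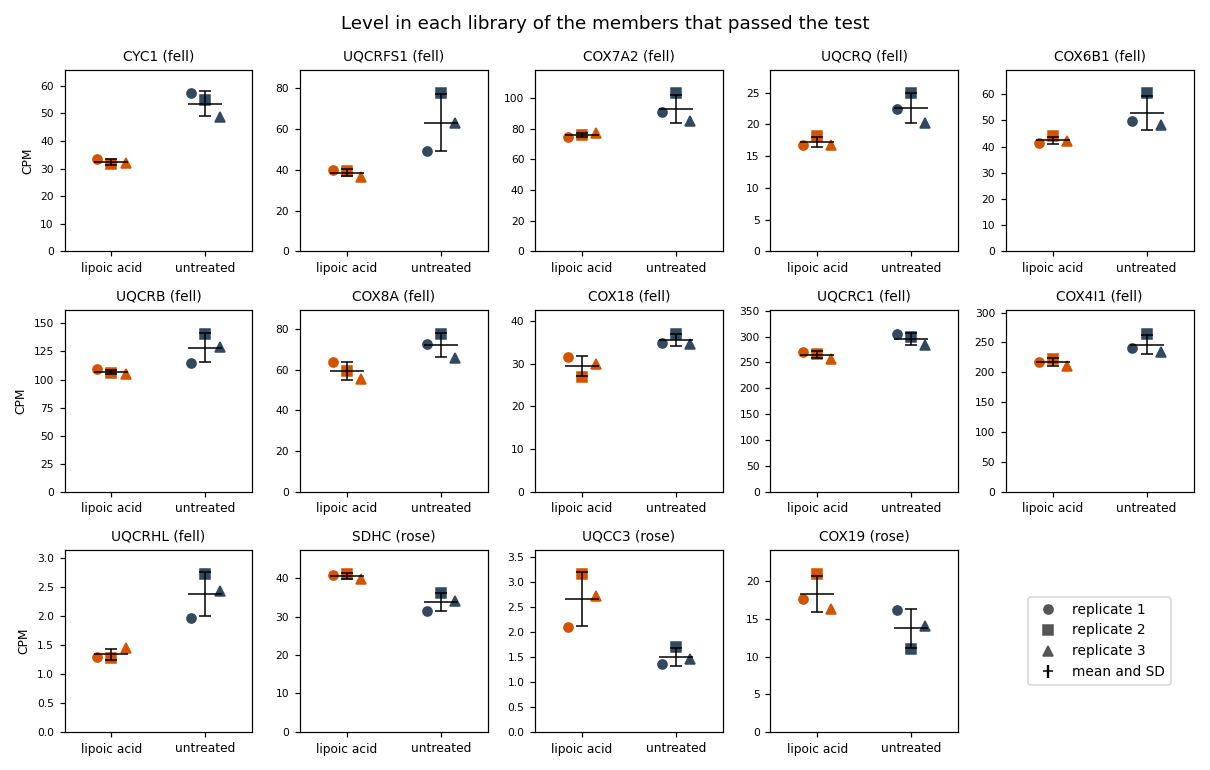
Level in CPM in each of the 3 lipoic acid and 3 untreated libraries for the 14 members that passed the test, each axis starting at 0, with the mean and SD of each group. The groups do not overlap in any panel; CYC1 is at 31.5 to 33.5 CPM with lipoic acid and 48.5 to 57.2 CPM untreated, and untreated replicate 2 (square) is the highest untreated point in most panels of genes that fell.

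In complex IV none of the 11 tested subunits rose and 4 fell, each by less than 1.3-fold. That is 36.4% called, all lower, where 47.4% of all tested genes were called, 24.2% higher and 23.3% lower. COX6B1, a subunit that faces the intermembrane space, had 41.2, 43.9 and 42 CPM with lipoic acid and 49.9, 60.3 and 48.3 CPM untreated. It fell 1.25-fold (log2 -0.32 ± 0.09, adjusted p = 0.0161), and the call was lost without lipoic acid replicates 1 (0.0674) or 3 (0.0656), after GC and length correction (0.0555) and in the even-count libraries (0.057). COX7A2, the widely expressed form of subunit VIIa, had 74.8, 75.8 and 77.4 CPM with lipoic acid and 91, 103 and 85 CPM untreated. Its groups did not overlap, and it fell 1.22-fold (log2 -0.29 ± 0.08, adjusted p = 0.0111), a call lost without lipoic acid replicate 1 (0.0509).

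COX8A, a small membrane subunit, had 63.7, 59.2 and 55.2 CPM with lipoic acid and 72.8, 77.7 and 65.8 CPM untreated. It fell 1.22-fold (log2 -0.28 ± 0.08, adjusted p = 0.0181), and the call was lost without lipoic acid replicates 2 (0.0623) or 3 (0.0991) and after GC and length correction (log2 -0.19, adjusted p = 0.104). Another annotated gene on the same strand covers 34.5% of the exons of COX8A. COX4I1, the subunit through which ATP inhibits the enzyme, had 218, 223 and 210 CPM with lipoic acid and 240, 265 and 234 CPM untreated. This fall of 1.13-fold (log2 -0.18 ± 0.06, adjusted p = 0.0377) was lost without lipoic acid replicates 1 (0.107), 2 (0.0767) or 3 (0.168), without untreated replicates 1 (0.0513) or 2 (0.0635), and in the even-count libraries (0.103). Per kilobase of exon COX8A was the highest tested complex IV subunit, at 117 CPM with lipoic acid and 142 CPM untreated.

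The other 7 tested subunits did not pass, with log2 values between -0.67 and -0.11. COX5A, which binds next to COX4I1, had 24.1, 23.7 and 22.7 CPM with lipoic acid and 22.2, 37.7 and 24.1 CPM untreated (adjusted p = 0.246). COX6C had 49, 51.1 and 51.9 CPM with lipoic acid and 52.3, 71.2 and 58.5 CPM untreated (adjusted p = 0.061), and it passed as lower after GC and length correction, without untreated replicate 1 and at an adjusted p under 0.1. In COX5A only untreated replicate 2 lay apart, whereas in COX6C the groups did not overlap. COX6C has 17 annotated pseudogenes named after it, and COX6B1 and COX5B have 7 and 6, so reads could be lost or shared where the authors' counting split them. COX5B, COX6A1, COX7B and COX7C averaged 55.5, 67.8, 72.1 and 115 CPM with lipoic acid. Untreated, they averaged 61.8, 75.3, 77.6 and 128 CPM (adjusted p = 0.161, 0.152, 0.217 and 0.188). COX7B passed as lower after GC and length correction, and COX6A1 and COX7C only when the replicate number was also a block. Untreated replicate 2 was the highest untreated library for all 11 tested subunits.

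Complex IV has tissue forms of several subunits, and these cells had transcripts of the general forms with few or none of the others. COX7A1, the heart and muscle form of subunit VIIa, had 0.648, 0.57 and 0.628 CPM with lipoic acid and 0.984, 1.46 and 0.499 CPM untreated (15 to 44 counts), which overlapped and did not pass (adjusted p = 0.285). Per kilobase of exon COX7A1 made up 1.52% ± 0.106 of COX7A1 and COX7A2 together with lipoic acid and 1.92% ± 0.771 untreated (SD, n = 3 each, exact permutation p = 0.5). COX4I2, the form induced by low oxygen, had a count in 1 lipoic acid library (0.127 CPM) and in untreated replicates 1 and 3 (0.0615 and 0.0997 CPM). COX6B2, a testis form, had counts in untreated replicate 3 alone (0.0665 CPM).

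COX6A2, the muscle form of subunit VIa, and COX7B2 and COX8C, forms known from testis, had no count in any library. With even counts halved, a count of 0 allows up to 0.053 CPM over the lipoic acid libraries and 0.0392 CPM over the untreated ones, for counting error only. COX6A2 and COX6B2 share 46% and 30.9% of their exons with another annotated gene. Beside these forms, 3 of the 6 tested muscle markers rose, ACTC1 (42.6 CPM with lipoic acid and 3.15 CPM untreated), ACTN2 and TTN, and TNNT2 and TNNI1 fell. Their part in these values was not tested.

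COX7A2L, a relative of COX7A2 that joins complexes III and IV into supercomplexes, was higher on average without passing. It had 86.7, 98.4 and 85.2 CPM with lipoic acid and 69.5, 86.1 and 76.2 CPM untreated, with log2 0.22 ± 0.09 (adjusted p = 0.0673). It passed as higher with DESeq2, with limma voom, in the even-count libraries alone, without untreated replicate 2 and at an adjusted p under 0.1. As a share of COX7A1, COX7A2 and COX7A2L per kilobase of exon, COX7A2L took 28.1%, 30.5% and 27.1% with lipoic acid and 20.4%, 21.8% and 23.3% untreated. These shares did not overlap (exact two-sided permutation p = 0.1, the smallest possible).

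Assembly factors of complex IV were split. COX19, a copper-handling protein of the intermembrane space, had 17.7, 21 and 16.3 CPM with lipoic acid and 16.2, 11 and 14 CPM untreated. It rose 1.33-fold just inside the threshold (log2 0.42 ± 0.16, adjusted p = 0.0492). The COX19 call was lost without each lipoic acid replicate (0.0912, 0.165 and 0.0562), without untreated replicates 2 (0.0909) or 3 (0.095), in the even-count libraries (0.394), with limma voom (0.0582) and after GC and length correction (0.0793). The replicate number as a block also ended this call (0.071). ADAP1 covers 21.4% of the exons of COX19 on the same strand. COX18, which inserts part of MT-CO2 into the inner membrane, had 31.6, 27 and 29.9 CPM with lipoic acid and 34.8, 37.1 and 34.7 CPM untreated. COX18 fell 1.20-fold (log2 -0.27 ± 0.08, adjusted p = 0.0239), a call lost without lipoic acid replicates 2 (0.0956) or 3 (0.0736), untreated replicate 3 (0.0515) and in the even-count libraries (0.115).

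The remaining assembly factors did not pass. COX10 and COX15, which make heme A for complex IV, averaged 36.8 and 56.8 CPM with lipoic acid and 33.5 and 58.5 CPM untreated (adjusted p = 0.145 and 0.638). COX11 and COX17, which deliver copper, averaged 42.5 and 4.65 CPM with lipoic acid and 39.8 and 5.11 CPM untreated (0.363 and 0.596). COX14 and COX16, which act in the making of MT-CO1 and MT-CO2, averaged 19.2 and 5.22 CPM with lipoic acid and 18.4 and 5.49 CPM untreated (0.693 and 0.811). COX20, a chaperone of MT-CO2, was too low to test, at 0 to 0.233 CPM, and 72% of its exons lie opposite HNRNPU.

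The 4 subunits of complexes III and IV made from the mitochondrial genome rose, whereas none of their nuclear partner subunits did. MT-CO1, which holds the oxygen-reducing centre of complex IV, had 11654, 9915 and 11482 CPM with lipoic acid, against 5004, 6118 and 5843 CPM untreated. It rose 1.95-fold (adjusted p = 1.53e-05), MT-CO2, which receives electrons from cytochrome c, 1.45-fold (0.000523), MT-CO3, the third core subunit, 2.12-fold (2.68e-06), and MT-CYB, cytochrome b of complex III, 1.81-fold (3.17e-05). The lowest lipoic acid library was above the highest untreated library for each of these 4 genes. Beside them, the 11 nuclear complex IV subunits summed to 787, 792 and 761 CPM with lipoic acid and 852, 999 and 839 CPM untreated. The ratio of the 3 mitochondrial to the 11 nuclear sums was 20.6, 17.7 and 21 with lipoic acid and 8.74, 9.14 and 10.1 untreated, 2.12-fold higher on average. For MT-CYB over 9 nuclear complex III subunits the ratio was 4.52, 3.87 and 4.72 with lipoic acid and 2.03, 2.24 and 2.2 untreated, 2.02-fold higher. The mitochondrial genome took 4.39% to 5.02% of counts with lipoic acid and 2.45% to 2.82% untreated, and a ratio within a library shows unequal change, not which side changed.

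**Figure D3:**
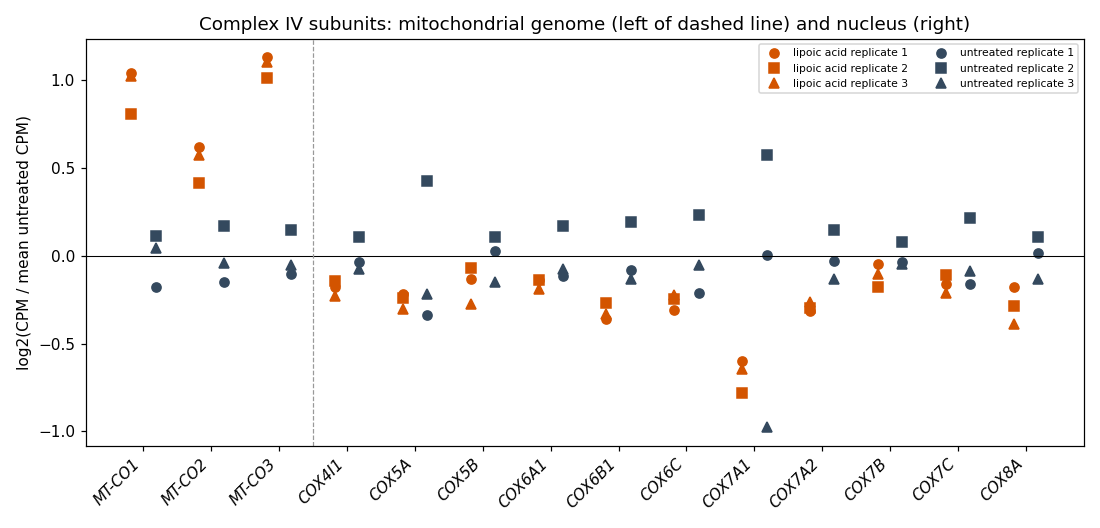
Log2 of CPM over the mean untreated CPM in each library for the 3 complex IV subunits of the mitochondrial genome and the 11 tested nuclear subunits, lipoic acid points left and untreated points right of each tick. Lipoic acid points lie above 0 for the mitochondrial genes, by 0.54 to 1.08 in the fitted log2 fold change, and below 0 for the nuclear ones, while untreated replicate 2 (square) is the top untreated point for every gene shown.

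Most helper proteins of complexes II to IV outside the symbol rule did not pass. Of 33 tested, 1 rose, 5 fell and 27 did not (18.2% called, against 47.4% of all tested genes, median log2 -0.19). FDX1, a mitochondrial ferredoxin needed for heme A synthesis and protein lipoylation, fell 1.58-fold, at 40.5, 44.8 and 45.2 CPM with lipoic acid and 65.7, 66.9 and 73 CPM untreated (adjusted p = 0.000101). LRPPRC, which stabilises mitochondrial transcripts, rose 1.29-fold, at 148 ± 9.15 CPM with lipoic acid and 114 ± 5.77 CPM untreated (adjusted p = 0.00163). TACO1, a translational activator of MT-CO1, fell 1.28-fold (0.00771), and APOPT1, a complex IV assembly factor, 1.35-fold (0.00537).

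Nuclear subunits of complex I gave counts near those of complexes II to IV. Of 34 tested, 3 rose and 8 fell (32.4% called, median log2 -0.16). Complexes II to IV had 37.8% called and -0.15, and all tested genes 47.4% and -0.01. The rises made up 8.82%, against 8.11% for complexes II to IV and 24.2% of all tested genes. The falls made up 23.5%, against 29.7% for complexes II to IV and 23.3% of all tested genes. The difference between the lists was not tested. NDUFS3 fell 1.31-fold, at 58.5 ± 0.481 CPM with lipoic acid and 76.5 ± 4.53 CPM untreated (adjusted p = 0.00119), and NDUFS1 rose 1.24-fold, at 192 ± 10.4 CPM with lipoic acid and 155 ± 4.27 CPM untreated (0.00223). Both are core subunits of the enzyme. The NDUFS1 rise was lost after GC and length correction (adjusted p = 0.347). NDUFB10 and NDUFV3, accessory subunits, fell 1.30-fold (0.00345) and 1.39-fold (0.00355).

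Of 17 tested regulators of respiratory chain genes, 7 rose and 3 fell (58.8% called, 41.2% higher and 17.6% lower, median -0.05), against 47.4%, 24.2% and 23.3% of all tested genes. MYC, a transcription factor of growth genes, had 41.9, 41.8 and 39.9 CPM with lipoic acid and 11.3, 13.1 and 14 CPM untreated, a 3.22-fold rise (adjusted p = 1.52e-06). TFB2M, a transcription factor of the mitochondrial genome, had 27.1, 26.9 and 27.8 CPM with lipoic acid and 13.5, 13.7 and 14.7 CPM untreated, a 1.95-fold rise (3.08e-05). In both genes the groups lay well apart. HIF1A, the low-oxygen factor that switches between COX4I1 and COX4I2, rose 1.43-fold (7.5e-05), and EPAS1, its endothelial relative, fell 1.36-fold (8.32e-05). The coactivators PPARGC1A and PPARGC1B, chosen after their values were seen, fell 1.46-fold and 1.36-fold (adjusted p = 0.00149 and 0.0127). The PPARGC1B call was lost without lipoic acid replicates 1 (0.0554) or 3 (0.0636), and its log2 was -0.32 among the even-count libraries. PPRC1, of the same list and also chosen after its value was seen, went the other way. It averaged 32 CPM with lipoic acid and 25.8 CPM untreated, a 1.24-fold rise (adjusted p = 0.0274).

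**Figure D4:**
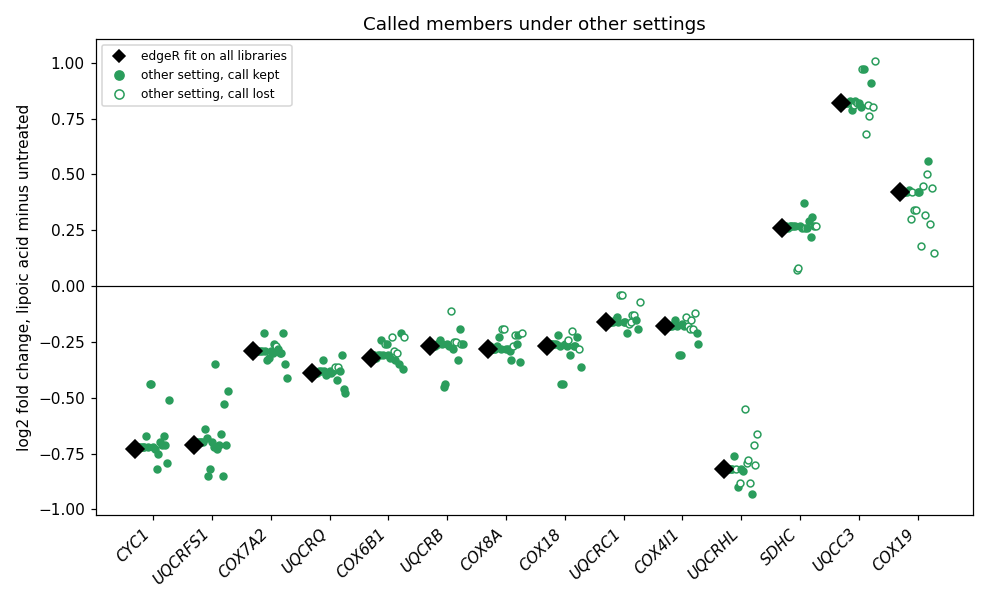
Log2 fold change, lipoic acid minus untreated, of the 14 called members in the edgeR fit on all libraries (black) and under 19 other settings (green, open where the call was lost). CYC1 and UQCRFS1 are filled throughout, and most other members have some open points.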

How the data were processed

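The authors deposited whole-number counts for each gene symbol in 6 libraries of amplified polyA cDNA. Per the submitters' processing notes the tools were HISAT2, featureCounts and DESeq2 and the build hg38. Their versions, annotation, strand setting and options are not given in the sources used here. No column was left unused.

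The software was edgeR 4.0.16, DESeq2 1.42.0 and limma 3.58.1 in R 4.3.3. After filterByExpr 13780 genes were left, which were scaled by TMM and tested by edgeR's quasi-likelihood F test on group alone. Called genes had an adjusted p under 0.05. Standard errors are the log2 fold change over the square root of F. CPM use TMM-scaled library sizes. Exon lengths, positions and overlaps came from GENCODE v29 (GRCh38), which held 99.36% of symbols. The fit was tested on simulated counts. The labels do not say whether replicates were separate cultures, so the spread that p values measure is that of these 6 libraries and may be technical. The cDNA was amplified without stated molecular barcodes, so floors (3 counts over a group) cover counting error only.

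Members and lists were chosen with earlier results of these data known. Outside the naming rule given next, NRF1, GABPA and YY1 are named because their motifs were searched. PPARGC1A, PPARGC1B and PPRC1 are also named outside it, after their values were seen. The rule for named genes took all members, with values in every library for the 6 members of lowest p in each direction, the highest per kilobase in each complex and the isoform pairs, and up to 4 called genes of each other list. Other settings were upper-quartile scaling, relative log expression, no filter, a minimum of 1 CPM throughout a group, limma voom with quality weights, DESeq2, an adjusted p under 0.1, a fold of 1.5, the replicate number as a block, a GC content and length trend (splines with 5 degrees of freedom) removed, removal of the mitochondrial genome, halved even counts, libraries of even counts alone and leaving out each library. The trend removed within the libraries of even counts was added after the data were seen.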

Additional observations from a re-analysis of the deposited data

How the results depend on the processing

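No called member's fold change, median of the members or ratio given here changed direction under the settings tried. The share of falls did change its order. It was above that of all tested genes in the fit on all libraries, and below it with any lipoic acid replicate left out. Relative log expression, upper-quartile scaling, no filter, the filter of 1 CPM, DESeq2, removal of the mitochondrial genome and halved even counts left 3 or 4 members higher and 10 or 11 lower. With a fold of at least 1.5 required, 1 of the 37 rose and 3 fell, against 12.6% and 11.2% of all tested genes. With limma voom the median log2 fold change was -0.10. After GC and length correction 1 rose, with a median of -0.19, and together with the replicate block 0 rose and 14 fell, also with a median of -0.19. All tested genes shifted too, to a median of -0.08 with or without the block. With both, 19.4% of all tested genes rose and 28.2% fell. In the even-count libraries alone 6 fell, with a median of -0.07, and with the correction also made there, an alternative added after the data were seen, 0 rose and 7 fell, with a median of -0.19. Leaving out 1 library gave 1 to 3 rises, 3 to 11 falls and medians of -0.18 to -0.07. Of all tested genes 18.9% to 25.1% then rose and 16.9% to 24.2% fell. The lowest count of falls came without lipoic acid replicate 3, and the cause of these shifts was not tested, beyond the smaller number of samples. Deviations from the group mean correlated weakly between libraries of the same replicate number (0.0598, 0.0602 and 0.0783). Each lipoic acid library still correlated best with the untreated library of its own number. Whether a number marks a shared origin cannot be told from these values, and the labels do not say. The replicate block gave 2 rises and 11 falls: it left 11 of the 14 calls in place, ended those of COX19 (adjusted p = 0.071), UQCC3 (0.0639) and UQCRHL (0.0824), and added COX7A2L as higher and COX6C as lower. The mitochondrial over nuclear ratios of complexes IV and III were 2.12 and 2.02-fold higher, and neither left its spread when 1 library was left out. The lipoic acid over untreated ratio of the COX7A1 share was 0.792, between 0.653 and 0.973 with 1 library left out. With the longest transcript as the length, SDHB, UQCRC1 and COX8A were at 62.6, 133 and 117 CPM per kilobase with lipoic acid, and UQCRH, at 137, passed UQCRC1. UQCRHL and UQCC3 rest on 40 to 112 counts per library.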
